A study of Mus musculus with 12 samples.

Results

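Cardiomyocytes of Des-/- mice, which lack the desmin gene, were compared with those of Des+/+ mice after the animals of both genotypes had swum. The comparison was defined by the labels for genotype and exercise, and it took 6 of the 12 libraries in the series, 3 labelled Des+/+ Swim and 3 labelled Des-/- Swim. The remaining 6 libraries came from mice of the same 2 genotypes that had not swum, and they entered the estimate of the spread and the comparison at the end. All mice were 3 months old, and their cells were released from the heart by perfusion with trypsin and collagenase D and harvested at once. The loss of desmin was constitutive, so that every cell type of the heart lacked the gene, and each library held pooled cells of several mice on the 129SV background. The paper describes both genotypes as homozygous for an alphaMHC-GFP transgene, from a line brought onto 129SV by repeated backcrossing. Poly-A RNA was sequenced, and the question was how the transcriptome of cardiomyocytes without desmin differs once the heart has been put under the load of exercise.

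Desmin is the intermediate filament protein of muscle. Its network ties the Z-discs of neighbouring myofibrils to one another, to the costameres and intercalated discs of the cell membrane, to the mitochondria and to the nucleus. Hearts without it are known for displaced and swollen mitochondria, for loss of cardiomyocytes and for fibrosis, and swimming is used in mice as a mild way to raise the work of the heart.

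Reads assigned to genes numbered 7425291 to 9440967 in the Des+/+ and 4320819 to 6521963 in the Des-/- libraries, so that every Des-/- library was shallower. Levels are given as CPM, the reads of a gene scaled to 1 common total for all libraries, and 3 reads, taken as the limit of detection, were worth at most 0.656 CPM. The share of uniquely aligned reads outside genes was 47.8% ± 2.31 in Des+/+ and 60.01% ± 3.95 in Des-/- libraries (SD, n = 3). The first principal component of the 6 libraries carried 49.1% of the variance and separated the genotypes, and the second, with 25.2%, set replicate 3 of the Des-/- group at 34.2 and its other replicates at -33.1 and -27.9. All 12 cardiomyocyte markers were detected in every library, and their summed level was 58764, 34857 and 48054 CPM in Des+/+ against 30438, 31288 and 19047 CPM in Des-/- libraries. Fibroblast markers summed to 7043, 6399 and 7709 CPM in Des+/+ and to 11888, 9760 and 16300 CPM in Des-/- libraries. Neither pair of groups overlapped, and in bulk RNA fewer cells of a type cannot be told apart from less RNA per cell. Endothelial markers overlapped, at 11300 to 16161 CPM in Des+/+ and 11725 to 16371 CPM in Des-/- libraries. Replicate 3 of the Des-/- group alone was high in macrophage markers, with 1047 CPM against 221 to 271 CPM in the other 5 libraries, and in epicardial markers, with 388 CPM against 22.3 to 75.9 CPM. Of the neutrophil markers, Ly6g and Ngp had no read in any swum library. The 4 Y-linked genes summed to 144, 292 and 291 CPM in Des+/+ libraries and to 0.995, 0.437 and 272 CPM in Des-/- libraries. Des-/- replicates 1 and 2 thus held almost no Y-linked reads. In the libraries without swimming the sums were 72.7, 245 and 4.06 CPM in Des+/+ and 0.106, 0 and 179 CPM in Des-/-. The paper used animals of either sex, so that genotype and the sex of the pooled mice cannot be fully told apart.

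**Figure D1:**
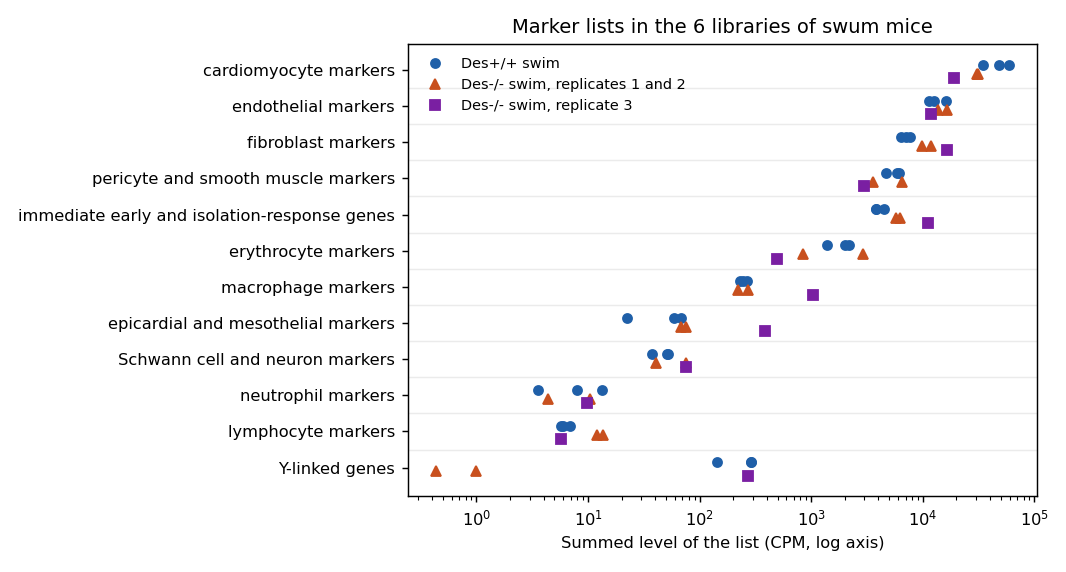
Summed level of each marker list in CPM on a log axis, with 1 point for each of the 6 libraries of swum mice. Cardiomyocyte markers (34857 CPM and above in Des+/+, 31288 CPM and below in Des-/-) and fibroblast markers do not overlap between the genotypes, macrophage and epicardial markers are high only in Des-/- replicate 3, and the Y-linked genes are near 0 in Des-/- replicates 1 and 2.

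The targeted gene was read first. Des lies on GRCm38 chromosome 1, 75360329 to 75368579, and its level was 1636, 973 and 1209.9 CPM in the 3 Des+/+ libraries and 91.3, 97.5 and 101 CPM in the 3 Des-/- libraries (log2 change -3.72, SE 0.35, edgeR adjusted p 0.00323). The groups were far apart and every library matched its label, with some reads of the locus left in the Des-/- cells.

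Over all genes, 1392 of 13158 tested, or 10.6%, were called at an adjusted p under 0.05 by edgeR's quasi-likelihood test. Of these, 659 (5.01% of those tested) were higher and 733 (5.57%) were lower in Des-/- cells. The balance of directions depends on the scaling: 47.3% of the called genes were higher with the scaling used throughout, and 67.5% with upper-quartile scaling. Among the called genes 1384 showed no overlap between the 3 and the 3 libraries, as did 35.9% of everything tested. Before adjustment, 4009 genes (30.5%) had a p under 0.05. Replicates varied with a common biological coefficient of variation of 0.271.

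The number called rested on all 6 libraries being present. Without replicate 3 of the Des+/+ group 74 genes were called, and without any other single swum library 505 to 817. Without replicate 3 of the Des-/- group that had not swum, which enters this comparison through the shared fit only, 2142 genes were called. Since nothing in the labels ties a library to particular mice, these p-values measure the spread between libraries. Of the 1392 genes, 69 (0.524% of those tested) were called in all 6 fits, 31 higher (0.236%) and 38 lower (0.289%), and these are described as the core. Every gene named below that is not said to belong to the core lost its call in at least 1 of the 6 fits.

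**Figure D2:**
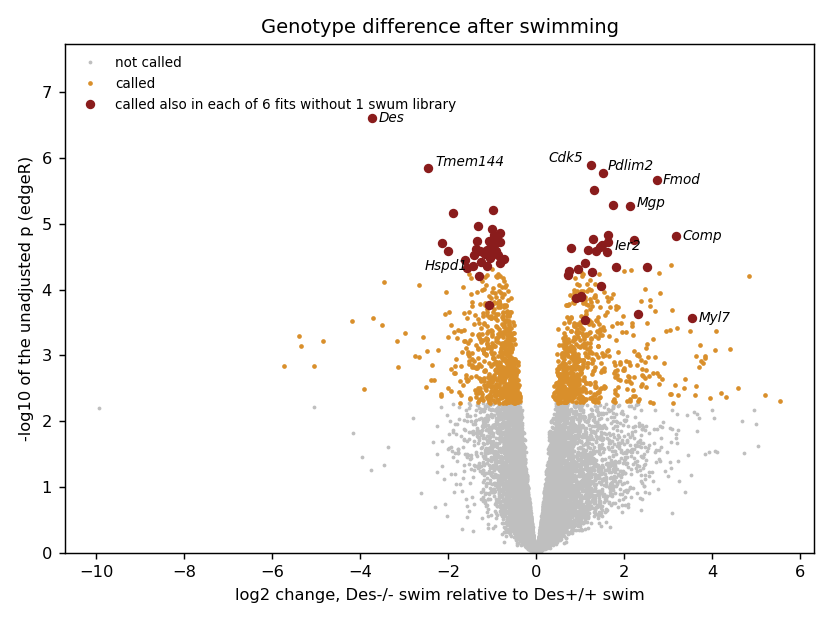
Each point is 1 of 13158 genes, with the log2 change of Des-/- swim relative to Des+/+ swim on the horizontal and -log10 of the unadjusted edgeR p on the vertical axis. Orange points are the 1392 called genes and dark red points the 69 called also in each fit without 1 swum library, with Des at the top left and Fmod, Comp and Mgp at the top right.

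**Figure D3:**
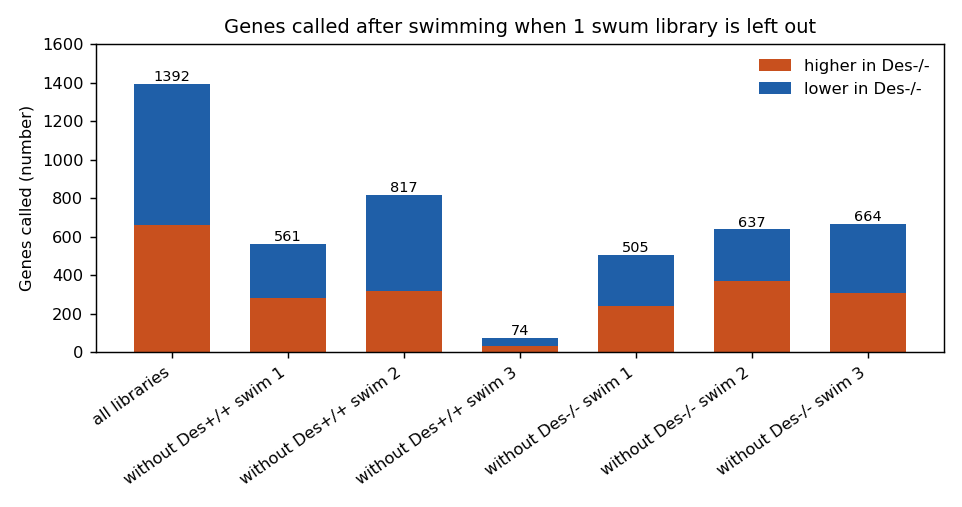
Number of genes called after swimming (bars from 0, split by direction) with all libraries and without each swum library in turn. The bar falls from 1392 to 74 without Des+/+ replicate 3 and to between 505 and 817 without each of the others.

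Among the core genes that rose were Comp, Fmod and Mgp, which encode proteins of the extracellular matrix. Comp, cartilage oligomeric matrix protein, was at 22.9, 8.24 and 16.6 CPM in Des+/+ and 157, 121 and 156 CPM in Des-/- libraries (log2 change 3.18, SE 0.45, edgeR adjusted p 0.00887). Fmod, the collagen-binding proteoglycan fibromodulin, was at 13.2, 7.28 and 9.96 CPM and 81.5, 50.5 and 70.5 CPM in the same order (log2 change 2.74, SE 0.31, edgeR adjusted p 0.00559). Each Des-/- library lay several times above the highest Des+/+ library, and replicate 3 did not stand apart from the other 2 in either gene. Mgp, matrix Gla protein, an inhibitor of calcification, was at 379, 244 and 250.2 CPM in Des+/+ and 1335, 942 and 1554 CPM in Des-/- libraries (log2 change 2.13, SE 0.27, edgeR adjusted p 0.00887). The genes lie on GRCm38 chromosome 8, 70373558 to 70382066 for Comp, chromosome 1, 134037254 to 134048277 for Fmod and chromosome 6, 136872435 to 136875823 for Mgp.

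The other core genes that rose by the naming rule came from unrelated families. Pdlim2, an actin-associated PDZ and LIM domain protein, was at 17.95, 16.4 and 20.8 CPM in Des+/+ and 53.3, 46.1 and 57.3 CPM in Des-/- libraries (log2 change 1.51, edgeR adjusted p 0.00551). Il20rb, a receptor subunit for cytokines of the interleukin-20 family, was at 4.84, 4.17 and 4.13 CPM and 11.9, 16.2 and 16.01 CPM (log2 change 1.74). Cdk5, a kinase best known from neurons, was at 26.7, 22.4 and 20.8 CPM and 54.6, 58.4 and 51.9 CPM (log2 change 1.24, adjusted p 0.00551 by edgeR). In each of these genes the lowest Des-/- library exceeded the highest Des+/+ library. Miip and Ints6l rose by 1.64 and 1.32 on the log2 scale. Myl7, the atrial regulatory light chain, also belonged to the core but was scarce, with 1.06, 0.749 and 0 CPM in Des+/+ and 5.403, 8.97 and 8.01 CPM in Des-/- libraries.

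Among the core genes that fell, Tmem144, a membrane protein, showed the largest change beside Des, from 53.7, 57.5 and 75.7 CPM in Des+/+ to 11.1, 12.03 and 11.1 CPM in Des-/- libraries (log2 change -2.45, SE 0.27, edgeR adjusted p 0.00551). Hccs, which attaches heme to cytochrome c, was at 53.9, 81.3 and 108 CPM and 25.7, 20.3 and 18.8 CPM (log2 change -1.901). Msl3, a subunit of a histone acetyltransferase complex, lies on the X chromosome as Hccs does (chromosome X, 168654117 to 168673898 and chromosome X, 169250193 to 169320372) and was at 71.1, 113 and 110.1 CPM and 40.2, 37.2 and 40.3 CPM (log2 change -1.32). The lowest Des+/+ library was above the highest Des-/- library in all 3 genes. Sh3kbp1, an endocytic adaptor, changed by -1.01, Aak1, a kinase of clathrin-coated pits, by -0.97, St3gal5, which makes the ganglioside GM3, by -0.96 and Ube2g1, a ubiquitin-conjugating enzyme, by -0.99 on the log2 scale.

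The core was denser on the X chromosome, which held 7 of the 69 core genes (10.1%) and 3.3% of all genes tested. Apart from Ints6l, which rose and lies at 56454857 to 56507843, these core genes all fell. They lay in 1 stretch of the chromosome, between bases 157443855 and 169320372, and why they lie together was not tested. For the called genes as a whole the X chromosome was near the background, with 50 of 434 tested genes called (11.5%). Des-/- replicate 3, whose Y-linked level was like that of the Des+/+ libraries, did not stand apart from Des-/- replicates 1 and 2 in Hccs, Msl3, Sh3kbp1 (40.4, 33.9 and 38.3 CPM) or Ints6l (122, 102 and 103 CPM against 43.8, 49.97 and 37.4 CPM in Des+/+). Core genes had to be called with and without each swum library, so that this evenness is partly fixed by their choice. With the Y-linked level as a covariate, chosen after the data were seen, the log2 changes of these 4 genes were -1.93, -1.304, -0.94 and 1.26, and all 4 were called. Among the Des-/- swim libraries replicate 3 alone held many Y-linked reads, so that this covariate also carries whatever else marks that library. Cilp, described below, changed by 3.82 with the covariate and by 1.37 without that library, and C1qb by 2.66 and 0.28. A call kept with it is therefore not independent of Des-/- replicate 3. Of the 160 called genes named in the text, 5 were not called with this covariate: Vcl, Mef2a, Smad2, Adra1a and Pkm, with edgeR adjusted p-values of 0.0885, 0.0956, 0.0952, 0.0595 and 0.0529. Genes within 10 megabases of Des on either side held 12 called genes of 79 tested (15.2%, 4 higher and 8 lower), none of them in the core. Myl1, the fast skeletal light chain, and Mreg, melanoregulin, are among them and belong to the largest decreases described next.

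The naming rule also took the 12 largest changes in each direction among well-counted genes whose libraries did not overlap. Of the decreases, Myl1 was at 24.4, 47.7 and 73.1 CPM in Des+/+ and 3.27, 3.94 and 5.85 CPM in Des-/- libraries (log2 change -3.47). Frmd5, which binds the cytoskeleton to the membrane, was at 51.7, 56.2 and 66.9 CPM and 9.101, 10.3 and 8.16 CPM (log2 change -2.67), and Efnb3, an ephrin ligand, at 107, 65.3 and 79.97 CPM and 19.3, 20.99 and 8.62 CPM (log2 change -2.38). By the rule, no Des-/- library reached the range of the Des+/+ libraries in any of them. Lrrc4b and Pianp, genes of neuronal cell surfaces, changed by -3.52 and -3.15 and Mreg by -2.57 on the log2 scale. Kcnj14, an inward rectifier potassium channel, was at 8.86, 20.9 and 27.6 CPM in Des+/+ and 0.427, 0.219 and 1.23 CPM in Des-/- libraries, close to the limit of detection. Ceacam2 and Gm8909 were also at or near that limit in the Des-/- libraries, with 0.995, 0.437 and 1.08 CPM and 0.427, 0.437 and 0.462 CPM against 21.3, 56.2 and 31.4 CPM and 8.15, 42.7 and 6.404 CPM in Des+/+, and both belong to families of close copies between which reads can be split.

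In many of the largest increases Des-/- replicate 3, the library high in macrophage and epicardial markers, stood above the rest. Cilp, a matrix protein of cartilage and scar, was at 21.3, 16.8 and 15.4 CPM in Des+/+ and 58.02, 33.9 and 387 CPM in Des-/- libraries. Its log2 change was 3.17, and 1.37 without that library. For Col8a2, Timp1, Clec11a and Mfap4 the log2 changes of 3.800, 3.84, 2.65 and 2.58 became 2.14, 2.53, 1.89 and 1.67. The naming rule itself required that Des-/- replicates 1 and 2 also lie above all Des+/+ libraries in these genes. Nox4, an oxidase that makes hydrogen peroxide, rose by 2.52 (1.81 without the same library). Naip5, a sensor of bacterial flagellin with close copies in the genome, was at 1.18, 0.749 and 0.854 CPM in Des+/+ and 14.6, 10.7 and 22.8 CPM in Des-/- libraries, with replicate 3 less far from the others.

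**Figure D4:**
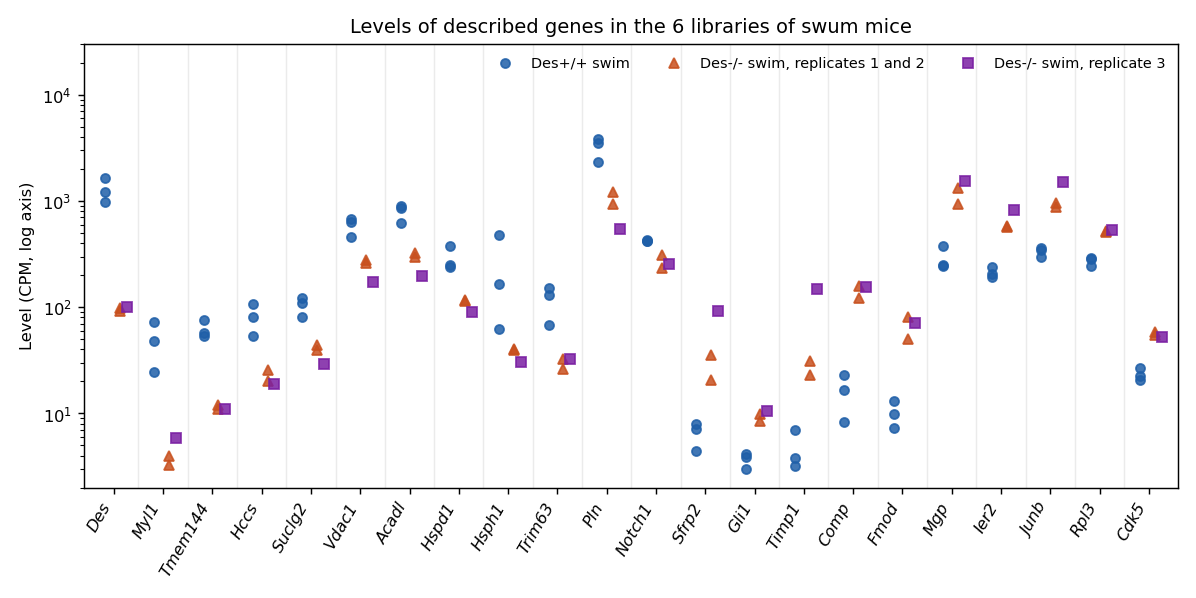
Level in CPM on a log axis of genes described in the text, with circles for the 3 Des+/+ swim libraries, triangles for Des-/- swim replicates 1 and 2 and squares for Des-/- swim replicate 3. The genotypes do not overlap in any gene shown. Sfrp2 and Timp1 show replicate 3 set above the other Des-/- libraries, whereas Comp, Fmod and Tmem144 do not.

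The lists of genes that follow were described by the members called in each direction and by the median log2 change, to be read against 10.6% called and a median of 0.02 over all genes tested. Where 1 direction alone is given, edgeR called no member in the other. Of 14 intermediate filament and linker genes, 1 rose and 3 fell, with a median of -0.48. Besides Des these were Sync, the desmin-binding syncoilin, at 10.9, 10.2 and 10.7 CPM in Des+/+ and 3.697, 3.72 and 4.46 CPM in Des-/- libraries (log2 change -1.41), and Bag3, the co-chaperone of the Z-disc, at 411, 366 and 390.1 CPM and 209, 201 and 216 CPM (log2 change -0.90, edgeR adjusted p 0.0156). Both were even within each genotype. Prph, peripherin, a filament of peripheral neurons, was scarce and rose from 1.299, 1.18 and 0.712 CPM to 7.25, 5.47 and 9.699 CPM. Of 17 genes of the nuclear lamina and the complex that links it to the cytoskeleton, only Sun2, an inner nuclear membrane protein, was called (log2 change -0.58), and Lmna, lamin A/C, was at 308, 202 and 253 CPM and 250.1, 280.1 and 328 CPM without a call. Of 20 tubulin genes and their modifiers, Tuba1c rose, from 14.8, 12.9 and 14.2 CPM to 28.9, 33.2 and 43.4 CPM, and the median was -0.24, or -0.15 without Des+/+ replicate 2.

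Genes of the membrane anchors of the myofibril fell or were not called. Of 18 intercalated disc genes 3 fell, and all 18 had a log2 change below 0 (median -0.57). They were Cdh2, N-cadherin, at 133, 80.5 and 135 CPM in Des+/+ and 51.6, 34.1 and 45.9 CPM in Des-/- libraries, Ctnna3, alpha-T-catenin, which changed by -1.56, and Vcl, vinculin, which changed by -0.74. Gja1, connexin 43, and Dsp, desmoplakin, were not called, with log2 changes of -0.57 and -0.79 and adjusted p-values of 0.183 and 0.255 by edgeR. Of 19 costamere genes 3 fell (median -0.50), which were Vcl again, Dag1, dystroglycan, at 378, 335 and 422 CPM and 208, 216 and 230.5 CPM, and Sgcb, beta-sarcoglycan, which changed by -0.89. The libraries of the genotypes did not overlap in any of these called genes.

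In the lists of fuel oxidation and of the respiratory chain every called member fell. In the citric acid cycle 10 of 19 members fell, and all 19 had a log2 change below 0, with a median of -1.16. Suclg2, which makes GTP in the cycle, was at 111, 81.6 and 121 CPM in Des+/+ and 43.9, 39.6 and 29.3 CPM in Des-/- libraries (log2 change -1.47, SE 0.24, edgeR adjusted p 0.0109). Dld, the shared dehydrogenase subunit of the 2-oxoacid complexes, was at 348, 283 and 408 CPM and 160.3, 133 and 113 CPM (log2 change -1.36). Idh3b, of the NAD-dependent isocitrate dehydrogenase, and Fh1, fumarase, changed by -1.24 and -1.21. The groups did not overlap in 17 of the 19 members, against 35.9% of all genes tested. In each of the 4 genes Des-/- replicate 3, the library with the lowest cardiomyocyte marker sum, was also the lowest. Without Des+/+ replicate 3 none of the 19 was called, and over the 6 fits without 1 swum library the median of the list stayed between -1.32 and -0.97.

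Fatty acid oxidation had 7 of 30 members lower, with a median of -0.80. Etfa, which passes electrons from the acyl-CoA dehydrogenases, was at 418, 311 and 449 CPM in Des+/+ and 189.5, 145 and 95.1 CPM in Des-/- libraries (log2 change -1.46, edgeR adjusted p 0.0177). Acadl, the long-chain dehydrogenase, was at 864, 614 and 903 CPM and 323, 295 and 196 CPM (log2 change -1.55), and Echs1, the hydratase of the pathway, changed by -1.096. In the glucose list 7 of 28 members fell (median -0.68), among them the subunit of the mitochondrial pyruvate carrier Mpc1 (75.7, 56.2 and 78.1 CPM in Des+/+, 33.3, 26.2 and 27.1 CPM in Des-/-), the pyruvate dehydrogenase subunit Pdha1 (log2 change -1.36), hexokinase 2, Hk2 (-1.25), and the pyruvate kinase Pkm (-0.81). Called members lay on both sides of the entry of pyruvate into the mitochondrion.

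In the respiratory chain 5 of 37 complex I genes fell (median -0.45, and -0.285 without Des+/+ replicate 1), and 9 of 40 genes of complexes II to V fell (median -0.55). All 40 of the latter and 36 of the former had a log2 change below 0. The complex II subunits Sdhd and Sdhc were at 267, 198 and 260.4 CPM and 415, 338 and 463 CPM in Des+/+ and at 123, 119 and 82.1 CPM and 232, 166 and 126 CPM in Des-/- libraries (log2 changes -1.16 and -1.22). Cycs, cytochrome c, changed by -1.11 and Cox7c, of complex IV, by -1.04. In complex I, Ndufs1, which carries iron-sulfur clusters, was at 459, 339 and 491 CPM and 196, 183 and 119 CPM (log2 change -1.38), and Ndufb4 and Ndufc2 changed by -0.83 and -0.81. No library of one genotype reached into the range of the other in these called subunits.

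The transport and shape of mitochondria followed the same direction. Of 19 genes for outer membrane channels, nucleotide carriers and energy transfer 8 fell (median -0.61). Vdac1, the main channel of the outer membrane, was at 639.5, 461 and 671 CPM in Des+/+ and 275, 259.6 and 171 CPM in Des-/- libraries (log2 change -1.33, SE 0.26, edgeR adjusted p 0.0154), and Vdac3 changed by -0.61. Slc25a13, a carrier of aspartate and glutamate, changed by -1.78 and Ppif, cyclophilin D of the permeability transition pore, by -1.56. Of 23 genes of mitochondrial shape 8 fell (median -0.51), with Apoo and Apool of the cristae junction complex at 49.6, 33.9 and 47.4 CPM and 33.7, 31.1 and 32.9 CPM in Des+/+ and 14.6, 19.5 and 8.31 CPM and 22.5, 16.6 and 16.3 CPM in Des-/- libraries. Opa1, which fuses inner membranes, changed by -0.97 and Mff, a receptor for fission, by -0.51. Called members thus included genes for fusion and for fission.

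Of the genes that make mitochondrial proteins, 13 of 76 mitochondrial ribosomal protein genes fell and 1 rose (median -0.30). Mrpl21 belonged to the core, at 33.7, 27.1 and 31.4 CPM in Des+/+ and 16.6, 13.8 and 15.7 CPM in Des-/- libraries (log2 change -0.99, SE 0.14, edgeR adjusted p 0.00887), and Mrpl15, Mrpl3 and Mrpl50 changed by -0.98, -0.81 and -0.97. Among 21 regulators of energy metabolism 4 fell. They were Tfb2m and Tfam, factors for transcription of mitochondrial DNA, at log2 changes of -1.11 and -0.59, Prkaa2, the catalytic subunit of AMP kinase in muscle, at -1.87, and Klf15, a factor for lipid and amino acid use, at -1.51. Of 26 antioxidant genes 3 fell, and all 3, Sod2, Prdx3 and Txn2 (log2 changes -1.25, -1.21 and -0.54), encode mitochondrial enzymes. The median of the antioxidant list was -0.22, and -0.09 without Des+/+ replicate 1.

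Cardiomyocyte markers moved with these lists: their summed level was lower in all 3 Des-/- libraries, 1 of 12 markers was called, and their median log2 change was -0.71 (range -1.84 to -0.40). The part of a changed cell mix in the decreases was not tested.

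Heat shock chaperones fell in 9 of 25 cases with a median of -1.01, and 2 of them, Hspd1 and Dnajb4, belonged to the core. Hspd1 and Hspe1 encode the chaperonin of the mitochondrial matrix and its lid and are read in opposite directions from a shared promoter. Hspd1 was at 239.9, 380.4 and 252 CPM in Des+/+ and 115, 117 and 89.3 CPM in Des-/- libraries (log2 change -1.44, SE 0.23, edgeR adjusted p 0.0106), and Hspe1 at 83.4, 164 and 76.8 CPM and 51.6, 51.8 and 47.3 CPM (log2 change -1.11, SE 0.24, edgeR adjusted p 0.0209). Both were highest in Des+/+ replicate 2 and even across the Des-/- libraries, and without Des+/+ replicate 2 the log2 change of Hspe1 was -0.67 and it was still called. Hspa9, the mitochondrial Hsp70, changed by -1.01. In the cytosol Dnajb4, an Hsp40 of muscle, was at 102, 137 and 95.1 CPM and 39.2, 43.3 and 52.03 CPM (log2 change -1.31). Hsph1, an exchange factor for Hsp70, was at 165, 475 and 62.2 CPM in Des+/+ libraries, where replicate 2 was far above the others, and at 40.7, 39.4 and 30.8 CPM in Des-/- libraries. Its log2 change was -2.66, and -1.62 without Des+/+ replicate 2. The inducible Hspa1a was not called, at 237, 69.6 and 55.4 CPM and 32.1, 63.2 and 22.9 CPM (adjusted p 0.124 by edgeR), and was high in Des+/+ replicate 1.

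The promoter shared by Hspe1 and Hspd1 is printed because both genes fell together. The 250 bases before the start of Hspe1 lie at chr1:55087898-55088147 (plus strand, GRCm38.p6, from RefSeq), and capitals mark 2 overlapping matches to the heat shock element, the units GAA, TTC and GAA with 2 bases between each, at bases -89 to -77 and -84 to -72 of Hspe1.
Hspe1: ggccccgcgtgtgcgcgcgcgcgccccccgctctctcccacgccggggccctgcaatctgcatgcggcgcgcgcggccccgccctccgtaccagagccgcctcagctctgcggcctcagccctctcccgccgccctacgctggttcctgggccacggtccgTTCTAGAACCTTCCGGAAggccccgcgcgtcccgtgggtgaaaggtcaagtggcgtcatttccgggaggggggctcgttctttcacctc
A second RefSeq start of Hspd1, on the minus strand, has a window that covers the same letters. On both strands the element was found in 4 of 18 tested chaperone genes with a window, in 3 of the 8 called ones (Hspd1, Hspe1 and Hsph1, in the last after the start) and in 0.662% of all genes. A match describes the letters alone and no binding was measured.

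Among 19 thin filament and Z-disc genes 3 fell (median -0.80): Pdlim5, at 512, 443 and 648 CPM in Des+/+ and 192, 206 and 343 CPM in Des-/- libraries, Lmod2, leiomodin, which sets thin filament length, at 558, 425 and 446 CPM and 154, 191 and 126 CPM, and Nebl, nebulette, with a log2 change of -1.22. Actn2, alpha-actinin of the Z-disc, was not called (log2 change -0.99, edgeR adjusted p 0.196). Among 12 thick filament and titin-linked genes 2 fell (median -0.56, and -0.22 without Des+/+ replicate 1), and both, Trim63 (131, 68.5 and 151 CPM and 32.4, 26.2 and 32.8 CPM) and Trim55 (log2 change -1.76), encode ubiquitin ligases of the sarcomere and not filament proteins. Myh6, the main cardiac myosin heavy chain, was at 19082, 9620.4 and 13731 CPM and 8470.4, 8154 and 3649 CPM and was not called (adjusted p 0.285).

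Of 11 transcripts typical of fetal or atrial muscle 1 rose, Myl7, and 1 fell, Myl1. Nppa, which encodes atrial natriuretic peptide, was at 299, 161 and 157 CPM in Des+/+ and 239, 366 and 1435 CPM in Des-/- libraries and was not called. It was high only in Des-/- replicate 3. Myh7, the slow myosin heavy chain, was at 1843, 60.03 and 56.6 CPM in Des+/+ libraries, with replicate 1 far above the others, and at 1043, 1012 and 607 CPM in Des-/- libraries. The spread within Des+/+ exceeded the difference between the genotypes.

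Of 18 calcium genes 4 fell (median -0.73). Pln, phospholamban, the brake on the calcium pump of the sarcoplasmic reticulum, was at 3814, 2345 and 3482 CPM in Des+/+ and 1214, 935 and 540.2 CPM in Des-/- libraries (log2 change -1.84, SE 0.46, edgeR adjusted p 0.0302). Slc8a1, the sodium-calcium exchanger, was at 222, 196 and 291 CPM and 122, 102 and 128 CPM, Camk2d, the calmodulin kinase, changed by -0.81 and Asph, the junctin locus, by -0.58. Of 23 ion channel genes 2 fell, Kcnj14 above and Kcnj5, of the acetylcholine-gated channel, at 40.6, 23.1 and 56.6 CPM and 14.5, 11.4 and 5.23 CPM (list median -0.90). Of 20 genes of adrenergic and muscarinic signalling 4 fell and 1 rose. The alpha-1 receptors Adra1a and Adra1b fell, at log2 changes of -2.39 and -1.99, with Prkar1a, a regulatory subunit of protein kinase A, at -0.73, and Arrb1, an arrestin that silences receptors, rose by 0.71 (0.47 without Des-/- replicate 1).

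Among 17 cardiac transcription factors 2 fell (median -0.48). Srf, serum response factor, was at 89.05, 89.6 and 99.8 CPM in Des+/+ and 57.4, 61.5 and 58.2 CPM in Des-/- libraries (log2 change -0.65, SE 0.14, edgeR adjusted p 0.0198), and Mef2a changed by -0.66. Of 24 genes in the Notch list 2 fell and 1 rose (median -0.24, and -0.13 without Des+/+ replicate 2). The list also holds Nrg1 and Erbb4, of neuregulin signalling, and the gene that rose was Nrg1. The receptor Notch1 was at 426, 416 and 423 CPM and 235, 308 and 253 CPM (log2 change -0.67, SE 0.15, edgeR adjusted p 0.0224), and Nrarp, a target and inhibitor of the pathway, at 142, 155 and 168 CPM and 70.4, 95.1 and 84.7 CPM (log2 change -0.90). In both genes the 3 Des+/+ libraries were close together and above all Des-/- libraries. Nrg1, neuregulin, a ligand of the ErbB receptors, was scarce and rose from 0.354, 1.18 and 0.712 CPM to 4.69, 4.81 and 2.46 CPM, and its receptor Erbb4 was not called (log2 change -1.54, adjusted p 0.129). Among 18 Hippo and mechanosensing genes 2 fell, the kinase Lats2 (-0.71) and Amotl2 (-0.83), an angiomotin that binds Yap.

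Hedgehog and Wnt regulators moved the other way. Of 11 hedgehog pathway genes 4 rose (median 0.58). Gli1, the target and effector of the pathway, was at 4.13, 3.85 and 2.99 CPM in Des+/+ and 9.95, 8.53 and 10.6 CPM in Des-/- libraries (log2 change 1.402), the transducer Smo changed by 0.58, and the co-receptors Boc and Cdon by 0.88 and 1.06. Of 10 Wnt antagonists 5 rose and all 10 had a log2 change above 0, with a median of 1.92. Sfrp2, a secreted Wnt-binding protein, was at 7.91, 4.39 and 7.12 CPM and 35.4, 20.6 and 92.5 CPM (log2 change 2.94, 2.12 without Des-/- replicate 3). Frzb, of the same family, was at 23.97, 21.2 and 31.2 CPM and 59.6, 37.6 and 81.3 CPM and Apcdd1, a membrane inhibitor, at 12.6, 11.7 and 17.4 CPM and 22.3, 26.9 and 25.7 CPM. Sost, sclerostin, was near the limit of detection in Des+/+ libraries, at 0.118, 0.856 and 0.854 CPM, and at 3.55, 2.41 and 3.23 CPM in Des-/- libraries. Several of these genes are expressed by fibroblasts, whose markers were higher in the same libraries.

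Of 28 genes of exercise and growth signalling 2 rose and 2 fell (median -0.48). Igf1 was at 21.02, 12.2 and 27.6 CPM in Des+/+ and 44.8, 36.5 and 137 CPM in Des-/- libraries (log2 change 1.85, 1.01 without Des-/- replicate 3), and Nrg1 is described above. Irs1, the adaptor of the insulin and Igf1 receptors, was at 35.1, 31.1 and 30.3 CPM and 21.2, 14.4 and 9.85 CPM (log2 change -1.08), and the kinase Akt2 changed by -0.55. The ligand was thus higher and the adaptor and the kinase lower in the same libraries.

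In the lists of collagens, matricellular genes and matrix proteases every called member rose. The shares called were 12%, 16.7% and 15.4%, against 10.6% of all genes tested. Of 25 collagen chains 3 rose, with a median of 1.15, and the 3 were Col8a2, Col14a1 (31.2, 17.9 and 20.5 CPM in Des+/+, 44.9, 39.1 and 103 CPM in Des-/-) and Col27a1. The log2 changes of Col14a1 and Col27a1 were 1.43 and 1.300, and 0.86 and 0.80 without Des-/- replicate 3. Without Des-/- replicate 3 the median of the collagens was 0.46. Of 30 matricellular and crosslinking genes 5 rose (median 1.26, 0.49 without the same library), and Comp and Fmod were the 2 in the core. Fap, fibroblast activation protein, was at 8.86, 7.597 and 9.25 CPM and 16.5, 14.9 and 22.5 CPM (log2 change 1.07). Postn, periostin, a mark of activated fibroblasts, was not called, at 175, 123 and 229 CPM and 265, 270.1 and 2031 CPM, with replicate 3 of the Des-/- group far above the rest.

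Of 26 matrix proteases and inhibitors 4 rose (median 0.63, and 0.15 without Des-/- replicate 3). Mmp23 was at 14.3, 10.7 and 13.7 CPM in Des+/+ and 43.1, 38.1 and 89.3 CPM in Des-/- libraries (log2 change 2.14, SE 0.34, edgeR adjusted p 0.0106), and Adamts5, an aggrecanase, at 53.9, 64.2 and 54.9 CPM and 112, 87.9 and 179.5 CPM (log2 change 1.14). Mmp3, stromelysin, was at 3.66, 0.321 and 1.28 CPM and 39.1, 12.7 and 17.2 CPM, highest in Des-/- replicate 1, and Timp1, an inhibitor of these enzymes, at 6.97, 3.21 and 3.84 CPM and 30.9, 23.2 and 147 CPM, highest in Des-/- replicate 3. Of 29 genes of the TGF-beta family 2 rose and 2 fell, with a median of -0.06 that became 0.04 under upper-quartile scaling and also without Des+/+ replicate 2. The ligand Tgfb2 and the latency protein Ltbp3 rose by 0.84 and 1.13 (Ltbp3 0.72 without Des-/- replicate 3), and Smad2 and the receptor Bmpr2 changed by -0.50 and -0.55 on the log2 scale. Of 14 fibroblast markers 3 rose, Pi16 (185, 199 and 128 CPM and 363, 313 and 538 CPM), Dpt (log2 change 0.99) and Mfap5 (2.397, 1.26 without Des-/- replicate 3), with a list median of 0.72, and the part of a changed cell mix in the matrix genes was not tested.

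Of 35 chemokine, cytokine and receptor genes 2 rose, Cx3cr1 (1.65, 1.39 and 1.42 CPM in Des+/+, 7.54, 5.25 and 19.6 CPM in Des-/-) and Il18 (0.591, 0.642 and 0.712 CPM and 2.99, 2.19 and 8.01 CPM), with a list median of 1.05 that was 0.58 without Des-/- replicate 3. Of 22 complement genes 1 rose, the central component C3, at 296, 300.5 and 202 CPM and 657, 645 and 1577 CPM (log2 change 1.85, SE 0.42, edgeR adjusted p 0.0224), with a list median of 0.73 that was 0.23 without Des-/- replicate 3. Of 26 interferon-stimulated genes 1 rose, Ifit3, from 19.6, 17.01 and 31.7 CPM to 53.6, 43.96 and 57.7 CPM (list median 0.05, which was -0.11 without the same library and -0.13 without Des+/+ replicate 1). None of 21 MHC genes was called by edgeR (4 at an unadjusted p under 0.05, 1 by DESeq2), and their median of 0.69 was -0.06 without that library and 0.40 without Des+/+ replicate 2. None of 15 macrophage markers was called by edgeR or DESeq2 (2 at an unadjusted p under 0.05), although their median was 1.16, and C1qb, a complement subunit made by macrophages, was at 27.2, 27.4 and 27.7 CPM and 39.7, 26.5 and 227 CPM. The macrophage median rested on Des-/- replicate 3, without which it was -0.04. None of 5 lymphocyte, 4 neutrophil, 6 erythrocyte and 12 pericyte or smooth muscle markers tested was called by edgeR or DESeq2, with 1, 0, 1 and 0 of them at an unadjusted p under 0.05. Of 14 endothelial markers 1 rose, Vwf, von Willebrand factor, at 349.9, 279 and 209 CPM and 578, 492 and 551 CPM, and the median was -0.06, or 0.04 under upper-quartile scaling and -0.18 to 0.15 in the fits without 1 swum library. Of 11 epicardial markers Lrp2 was called, with 0.236, 0.321 and 0 CPM in Des+/+ and 1.42, 1.09 and 8.93 CPM in Des-/- libraries (log2 change 4.19, 2.599 without Des-/- replicate 3), and none of 8 Schwann cell and neuron markers was by edgeR or DESeq2 (2 at an unadjusted p under 0.05).

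Immediate early genes, which are switched on within minutes by growth factors, stretch or cell isolation, rose in 8 of 25 cases, with a median of 0.91 that was 0.60 without Des-/- replicate 3. Ier2 belonged to the core, at 191, 206 and 239 CPM in Des+/+ and 585, 565 and 825 CPM in Des-/- libraries (log2 change 1.64, SE 0.24, edgeR adjusted p 0.00887). Junb was at 299.5, 342 and 364 CPM and 959.7, 879.6 and 1519 CPM (log2 change 1.74, edgeR adjusted p 0.0125), and its partner in the AP-1 factor, Fos, at 148, 120.3 and 194 CPM and 404, 444 and 786 CPM (log2 change 1.82). All 3 were higher in every Des-/- library than in any Des+/+ library, and highest in Des-/- replicate 3. Egr1 was at 195, 385 and 219 CPM and 627, 618 and 1034 CPM (log2 change 1.51). Zfp36, which removes messages with AU-rich elements, and Btg2, which slows cell division, rose by 1.28 and 0.97. The part of the isolation procedure in these values was not tested.

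Of the 6 called immediate early genes with a RefSeq promoter window, 1 held a CArG box, the site of Srf, and 1 a full cyclic AMP response element, TGACGTCA. These occur in 1.81% and 2.03% of all genes, on both strands. The 250 bases before the starts of both genes are printed to show them, with the match in capitals, for Zfp36 (chr7:28379229-28379478, minus strand, CArG box at -58 to -49) and Btg2 (chr1:134079156-134079405, minus strand, response element at -166 to -159), both from RefSeq on GRCm38.p6.
Zfp36: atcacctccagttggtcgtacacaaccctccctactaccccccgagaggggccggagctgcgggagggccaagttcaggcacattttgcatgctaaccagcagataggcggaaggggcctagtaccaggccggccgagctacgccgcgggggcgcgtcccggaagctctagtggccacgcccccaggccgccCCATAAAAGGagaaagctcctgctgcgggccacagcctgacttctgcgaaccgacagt
Btg2: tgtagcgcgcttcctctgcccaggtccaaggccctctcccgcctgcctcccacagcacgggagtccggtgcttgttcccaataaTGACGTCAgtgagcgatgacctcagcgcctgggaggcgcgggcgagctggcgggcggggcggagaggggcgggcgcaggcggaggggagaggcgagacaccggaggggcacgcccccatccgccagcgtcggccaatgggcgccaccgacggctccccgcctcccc
No binding was measured.

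The cytosolic ribosomal protein genes that passed the test all rose, by small amounts. Of 75 tested, 12 rose, 70 had a log2 change above 0, and the median was 0.42, or 0.52 under upper-quartile scaling. Rpl3 was at 287, 242 and 288 CPM in Des+/+ and 510.2, 524 and 529 CPM in Des-/- libraries (log2 change 0.93, SE 0.16, edgeR adjusted p 0.0119), Rpl13a at 509.96, 362 and 368 CPM and 872, 702 and 777 CPM, and Rpl26 and Rpl6 changed by 0.67 and 0.56. The libraries of the genotypes did not overlap in 52 of the 75 genes, against 35.9% of all genes tested. Des-/- replicate 3 did not stand apart in the 4 named. Many ribosomal protein genes have processed copies elsewhere in the genome, so that part of their reads can be lost or split.

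Stress and cell death lists were mixed. Of 24 genes of the integrated and endoplasmic reticulum stress response 2 rose and 2 fell, with a median of -0.05, or 0.04 under upper-quartile scaling and -0.26 to 0.28 in the fits without 1 swum library, the highest without Des+/+ replicate 2. Asns, asparagine synthetase, rose by 0.79 and Ppp1r15a, which restarts translation, by 1.00, while Herpud1 and Dnajb9, of degradation in the endoplasmic reticulum, changed by -0.97 and -0.77. Of 24 cell death genes 2 rose and 1 fell. Gsdmd, the pore protein of pyroptosis, was at 41.3, 35.5 and 44.3 CPM in Des+/+ and 72.8, 65.8 and 69.3 CPM in Des-/- libraries (log2 change 0.78), Bok rose by 0.93, and Bbc3, a killer protein of the Bcl2 family, was at 19.01, 13.7 and 22.5 CPM and 8.67, 7.44 and 11.5 CPM (log2 change -0.99). In all 3 genes the genotypes did not overlap.

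Several lists had no called member after swimming or nearly none. Neither edgeR nor DESeq2 called any of 29 lysosome and autophagy genes (0 at an unadjusted p under 0.05, median 0.00, and -0.10 to 0.07 in the fits without 1 swum library), of 19 clock genes (1, median -0.18, and -0.02 without Des+/+ replicate 3) or of 28 cell cycle genes (3, median 0.32, and -0.19 without Des-/- replicate 3). Of 36 proteasome subunits Psmd12 fell (log2 change -0.51), and of 36 chromatin genes Tet3, a DNA demethylating enzyme, fell from 63.7, 65.8 and 73.6 CPM to 34.1, 41.99 and 46.2 CPM (log2 change -0.73). The proteasome median was -0.07, or 0.02 under upper-quartile scaling, and -0.12 to -0.04 in the fits without 1 swum library. Of the 56 lists, 45 held a called member, and 7 of these kept at least 1 in each fit without a swum library: chaperones, matricellular genes, intermediate filaments, fetal transcripts, Wnt antagonists, the mitochondrial ribosome and immediate early genes.

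The same genotypes were then set side by side without swimming, in 6 libraries that share none with those above but share the estimate of the spread. There 4210 genes (32.0%) were called, 1840 higher and 2370 lower, so that more genes passed the test than after swimming. Reads in genes numbered 8058801 to 11206142 in Des-/- libraries without swimming and 4320819 to 6521963 after it, and 8935126 to 12072443 and 7425291 to 9440967 in Des+/+ libraries. Mean shares outside genes were 36.4% without and 47.8% after swimming in Des+/+ libraries, and 45.2% and 60.01% in Des-/- libraries. The part of these differences in the number called was not tested. Without Des+/+ non-swim replicate 2 and without Des-/- non-swim replicate 3 the 4210 became 2612 and 2805. Of the 1392 genes called after swimming, 898 were called in both comparisons, 6 of them in opposite directions, and 494 after swimming only. Of the 69 core genes, 59 were called without swimming, all 59 in the same direction. Whether the genotype difference itself depended on swimming was tested by the interaction, which called 0 genes by edgeR (2148, or 16.3%, at an unadjusted p under 0.05) and 328 by DESeq2. A gene called in 1 comparison only is therefore not shown to differ between them.

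Among the libraries without swimming, Des-/- replicate 3 stood apart, with 7196 CPM of cardiomyocyte markers against 16132 and 30934 CPM in the other Des-/- libraries, 41808 CPM of fibroblast markers against 18549 and 14031 CPM, and 3058 CPM of macrophage markers against 511 and 323 CPM. Medians without swimming are therefore also given without that library. Medians of most mitochondrial lists were closer to 0 after swimming than without it. The citric acid cycle had -1.16 after and -1.97 without swimming, fatty acid oxidation -0.80 and -2.19, complex I -0.45 and -1.44, complexes II to V -0.55 and -1.65, and the mitochondrial ribosome -0.30 and -0.96. Without that library the 5 medians without swimming were, in the same order, -1.73, -1.95, -1.28, -1.44 and -0.88. Of these lists, 34 of 37 complex I genes and 32 of 40 genes of complexes II to V had an unadjusted interaction p under 0.05, against 16.3% of all genes tested (29 and 25, against 13.0% of all genes, without that library), and none an adjusted p under 0.05. Cardiomyocyte markers moved in the same way, with medians of -0.71 after and -2.13 without swimming, or -1.78 without that library. Their sums also differed within Des+/+, at 66820, 104878 and 73875 CPM without swimming and 58764, 34857 and 48054 CPM after it, without overlap. In the Des-/- libraries after swimming they were 30438, 31288 and 19047 CPM. Ndufb4 changed by -0.83 after and -1.64 without swimming (interaction 0.81, edgeR adjusted p 0.199) and Vdac3 by -0.61 and -1.37 (interaction 0.75, adjusted p 0.199). Cell cycle genes had a median of 0.32 after and 1.68 without swimming, collagens 1.15 and 2.11, and macrophage markers 1.16 and 2.95. The medians without swimming were 1.06, 1.33 and 0.93 without Des-/- non-swim replicate 3, and those after swimming -0.19, 0.46 and -0.04 without Des-/- swim replicate 3.

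Other lists had medians near those without swimming, or further from 0. Chaperones had medians of -1.01 after and -1.05 without swimming, Wnt antagonists 1.92 and 1.48, and cytosolic ribosomal proteins 0.42 and 0.30. Without Des-/- non-swim replicate 3 these medians without swimming were -0.88, 1.33 and 0.25. In the fits without 1 swum library the medians after swimming ran from -1.09 to -0.77, 1.31 to 1.96 and 0.36 to 0.48. The Wnt median of 1.31, without Des-/- swim replicate 1, is below the 1.48 found without swimming. The Notch list had -0.24 after and 0.20 without swimming, and 0.13 to 0.29 without swimming in the fits without 1 of those 6 libraries. Notch1 changed by -0.67 after and 0.19 without swimming (interaction -0.86, edgeR adjusted p 0.199) and Nrarp by -0.90 and 0.14. Lats2 changed by -0.71 and 0.01 and Bbc3 by -0.99 and 0.27. Of the core genes named above, Myl7 was at 3.54 after and -1.56 without swimming (interaction 5.098, adjusted p 0.199), and Cdk5 at 1.24 and 0.33 (interaction 0.90, adjusted p 0.199). None of these interactions passed the adjusted threshold by edgeR.

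**Figure D5:**
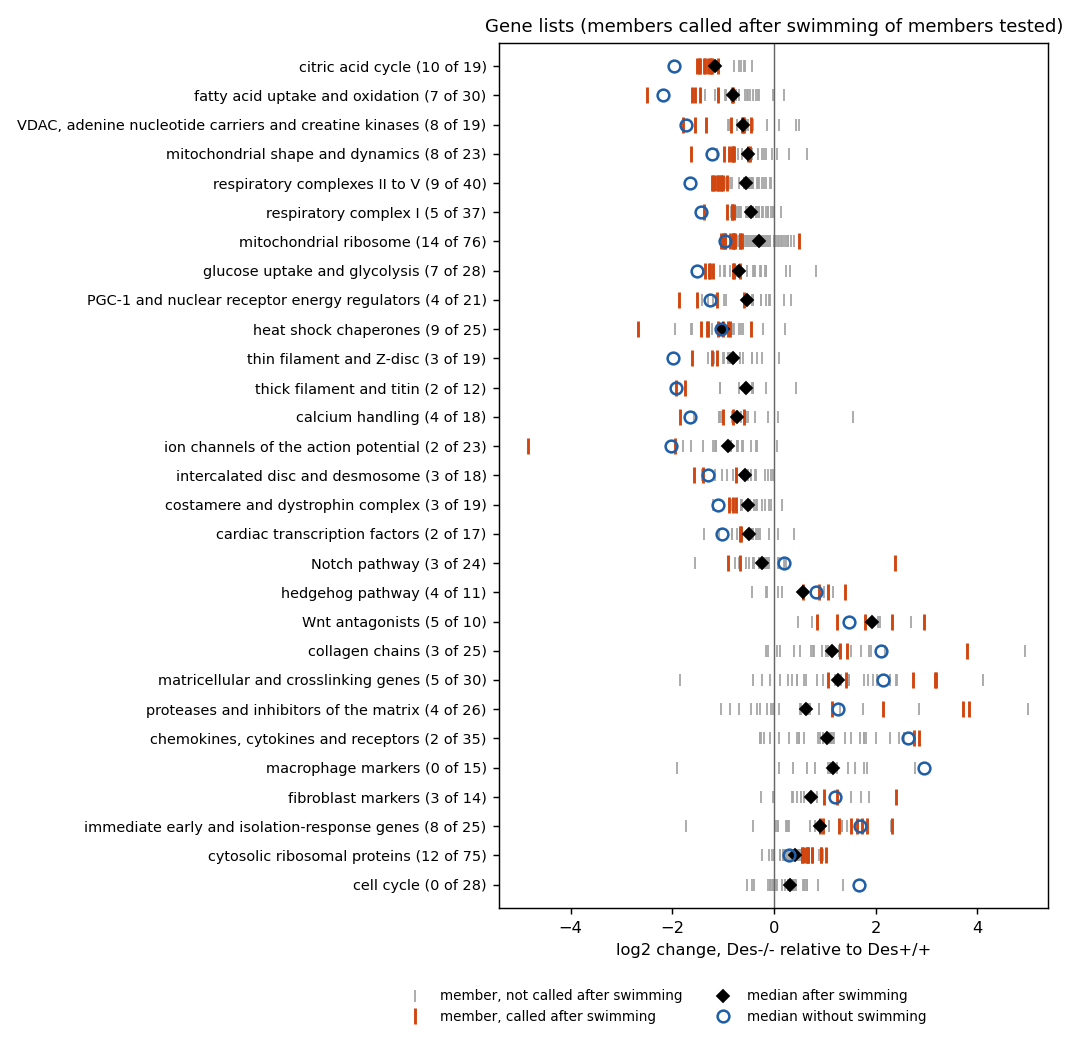
Log2 change of Des-/- relative to Des+/+ for the members of each gene list after swimming (ticks, orange where called), with the list median after (black diamond) and without swimming (blue circle) and the members called of those tested in brackets. Mitochondrial and sarcomere medians lie left of 0 and closer to 0 after swimming (citric acid cycle -1.16 against -1.97, or -1.73 without Des-/- non-swim replicate 3), and the collagen and matricellular medians lie right of 0 (1.15 and 1.26).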

How the data were processed

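RNA of cardiomyocytes from 12 libraries, 3 for each of 4 groups of genotype and swimming, was measured. The authors aligned 100 bp single-end reads to GRCm38/mm10 with HISAT2 2.2.1 and deposited raw counts per gene from HTSeq-count in its reverse-strand mode, with 21493 genes a library. Of these, 21488 matched GENCODE M21. The 5 summary rows of each table were left out of library sizes and tests.

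Counts were tested with edgeR 4.0.16 (R 4.3.3, limma 3.58.1) by its quasi-likelihood test on 13158 genes kept by filterByExpr, with TMM scaling and a model of 4 group means over the 12 libraries, which left 8 residual degrees of freedom. Genes were called at a Benjamini-Hochberg adjusted p under 0.05. CPM used TMM-scaled totals, and the floor was 3 counts, which covers counting error only. Totals of 4320819 to 9440967 reads in genes limit the precision of scarce genes. An exact permutation test of 3 against 3 libraries cannot give a p below 0.1, and none was used. Alternatives were DESeq2 1.42.0, other scalings and filters, the 6 swum libraries alone, a replicate block, thinning to 4320819 reads and leaving out each library. The scripts were tested on simulated data. There edgeR called 35 of 100 genes changed by 1 on the log2 scale and 87 of 100 changed by 2. A gene that was not called is therefore not shown to be unchanged.

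The comparison, members and lists were chosen with earlier results of these data known. Named genes were Des, the 12 largest changes in each direction among called genes with a mean scaled count of at least 100 and no overlap, up to 8 core genes in each direction, up to 4 members of each list by smallest p or highest level, and 7 genes of which the study or an earlier description speaks. A gene taken by this rule is not reported here. Hspe1, Zfp36, Btg2 and the genes that went in opposite directions with and without swimming were chosen after their values were seen. Promoters came from RefSeq (GRCm38.p6).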

Additional observations from a re-analysis of the deposited data

Results flagged for a closer look

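Genes called in opposite directions after and without swimming were Foxn2, Nab2, Rhbdf2, Slc25a24, Tab1 and Tet3. The genotype difference after swimming minus that without was -1.13 for Foxn2, -1.36 for Nab2, -1.05 for Rhbdf2, -1.27 for Slc25a24 and -1.16 for Tet3 on the log2 scale, and 1.13 for Tab1. None of these interactions passed the edgeR threshold, with an adjusted p of 0.174 for Foxn2, Nab2, Slc25a24 and Tet3 and 0.199 for Rhbdf2 and Tab1. In each gene the 3 libraries of one genotype did not overlap the 3 of the other, after swimming and without it. After swimming this held for 1384 of the 1392 called genes, so that it adds little to the calls.

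Reads outside genes, which entered no comparison, made up 60.01% of uniquely aligned reads in the Des-/- swim libraries against 47.8% in the Des+/+ swim libraries. What they are was not tested.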

How the results depend on the processing

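The 1392 genes called after swimming became 1404 with upper-quartile scaling, 1384 with RLE scaling, 1127 without a filter, 1393 with a stricter filter, 1080 with the 6 swum libraries alone and 1170 after thinning to equal depth. DESeq2 called 2332 genes, which included all 1392. A filter after the study's (unadjusted p under 0.05, a log2 change of at least 0.6 and a count of 20) gave 2313 genes with edgeR and 2427 with DESeq2. A covariate for the Y-linked level, added after seeing the data, gave 2628. Leaving out 1 library gave 74 to 2142 genes, the lowest without Des+/+ swim replicate 3 and the highest without Des-/- non-swim replicate 3. Without swimming, leaving out 1 library gave 2612 to 4590 called genes in place of 4210, with 2612 without Des+/+ non-swim replicate 2 and 2805 without Des-/- non-swim replicate 3. Myh7, not called at a log2 change of 0.44, was at 3.92 without Des+/+ swim replicate 1, -0.10 without replicate 3 of that group and -0.16 with the Y-linked covariate. The interaction called 0 genes with edgeR and 328 with DESeq2. The cause of these differences was not tested.

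Same-numbered swum libraries deviated from their group means with correlations of 0.0335, 0.1445 and 0.1692. Between Des+/+ and Des-/- swim libraries of different numbers the correlations ran from -0.1603 to 0.0505. With 3 libraries a group these values cannot tell whether the numbers pair the samples. With the replicate number as a block 1309 genes were called, and 936 with the 6 swum libraries alone.

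Shallow Des-/- libraries limit what scarce genes show.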
